A study of Mus musculus with 8 samples.

Results

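Adrenomedullin and apelin are small peptides through which blood vessels signal to their own lining. Adrenomedullin acts on CALCRL, a G protein-coupled receptor that reaches the cell surface and gains its ligand preference only with a receptor activity-modifying protein, or RAMP. With RAMP2 or RAMP3 it is an adrenomedullin receptor, and with RAMP1 it is the receptor for calcitonin gene-related peptide. CALCRL couples mainly to Gs and cyclic AMP and is known for tightening endothelial junctions and shaping lymphatic vessels. Apelin acts on APLNR, which couples mainly to Gi. In the lung, Apln is known as a marker of aerocytes, the gas-exchange capillary cells, and Aplnr as a marker of general capillary cells, so ligand and receptor mark neighbouring cell types.

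The genes described here are the 7 whose identifiers in the count table map to the mouse symbols Calcrl, Ramp1, Ramp2, Ramp3, Adm (adrenomedullin), Aplnr and Apln. They are 7 of 31610 genes in the table, and all 7 passed the filter on low counts, as did 18874 genes in all. They were listed by name, and the list was chosen with earlier results of these data known. RNA came from endothelial cells sorted from the lungs of C57BL/6J mice given an adeno-associated virus (AAV), a vector that carries a gene into tissue. The 4 samples of the Control AAV group were set against 4 of an nANGPTL4 AAV group, where nANGPTL4 is the N-terminal fragment of ANGPTL4, an inhibitor of lipoprotein lipase. The series calls the 4 samples of each group independent biological replicates. The titles of the second group read NT Treated, which the labels do not explain, so its identity rests on the treatment field. The vector's promoter, dose and time and the age of the mice are not stated in the sources used here.

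Libraries held 83183122 to 114337333 counts each, and every replicate pair differed beyond counting error (chi-square divided by its degrees of freedom, 21.3 to 60.2). The endothelial label fitted the markers: all 12 pan-endothelial markers were detected, with a summed level of 21539 to 22182 CPM (counts scaled to library size with TMM factors) in Control AAV and 20533 to 21491 CPM in nANGPTL4 AAV. Markers of other cells were far lower, with sums of 29.1 to 50.4 and 34.1 to 47.7 CPM for the 8 mural markers and 31.4 to 95.5 and 46.9 to 125 CPM for the 6 fibroblast markers. The sums were 15.7 to 38.0 and 25.8 to 49.7 CPM for the 14 leukocyte markers, 342 to 501 and 479 to 594 CPM for the 12 epithelial markers, and 45.8 to 89.0 and 74.8 to 87.4 CPM for the 9 erythroid and platelet markers. No gene of these lists was at 0 in all 8 libraries. Angptl4, the mouse gene of the delivered protein, was at 2.87 to 3.88 CPM in Control AAV and 3.89 to 6.59 CPM in nANGPTL4 AAV, with a log2 fold change of 0.63 (SE 0.17) and an edgeR adjusted p of 0.110.

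In these cells the adrenomedullin system was represented mainly by its receptor, and the apelin system by receptor and ligand together. Per kilobase of exon, in Control AAV, the order of levels was Calcrl at 869 ± 29.5 CPM per kb, Ramp2 at 654 ± 30.0, Aplnr at 227 ± 27.3, Apln at 88.5 ± 10.1, Ramp3 at 14.0 ± 1.54, Adm at 2.39 ± 0.346 and Ramp1 at 0.0769 ± 0.0385 CPM per kb (SD, n = 4). Each gap between neighbours was wider than the spread of the libraries. The first pair is less certain, because 33.4% of the exonic bases of Ramp2 are shared with Vps25, an endosomal sorting gene on the same strand. With those bases taken off its length and its counts unchanged, Ramp2 stood at 1.13 ± 0.0485 times Calcrl per kb in Control AAV. Over all exonic bases it stood at 0.753 ± 0.0323 times. The value on the shortened length holds only if no read in the shared bases was counted for Ramp2, so it is an upper bound. In nANGPTL4 AAV, Calcrl was at 724 ± 35.4 and Ramp2 at 664 ± 16.3 CPM per kb over all exonic bases. On the shortened length Ramp2 stood at 1.38 ± 0.0562 times Calcrl, so the order of this pair turns with the length used in both groups. The order of the other 5 genes was the same.

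Between the groups, Calcrl lay lower in all nANGPTL4 AAV libraries and its partner Ramp2 did not. The mean of Aplnr was also lower but its libraries overlapped, as did those of Apln, Adm, Ramp1 and Ramp3. None of the 7 passed an adjusted p under 0.05 over all genes in edgeR's quasi-likelihood test, which called 0.138% of the 18874 genes tested, 0.0477% higher and 0.0901% lower. At an unadjusted p under 0.05 there was 1 of the 7, Calcrl, against 17.6% of all genes in either direction and 10.3% in its direction. Among the 9256 genes above a mean log2 CPM of 3 these shares were 22.5% and 18.2%. DESeq2 called 1 of the 7, Calcrl, against 5.07% of all genes. limma-voom with quality weights called 0 of the 7, against 0.111% of all genes, and the robust edgeR fit also called 0, against 0.313%.

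**Figure D1:**
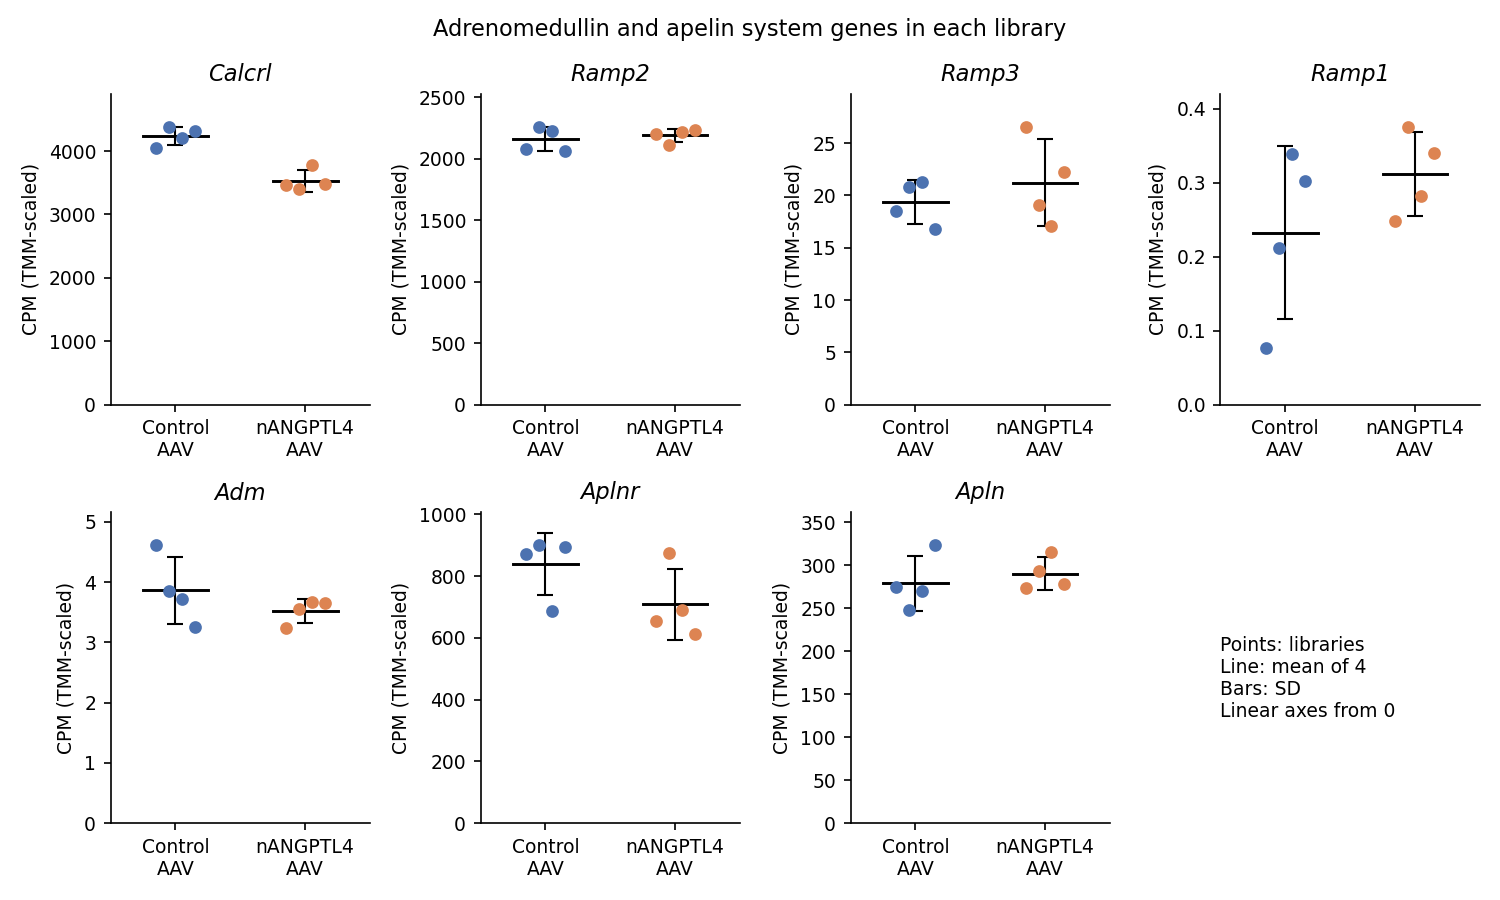
Level of each of the 7 genes in every library, in TMM-scaled CPM on linear axes that start at 0, with the mean of 4 libraries (line) and its SD (bars). Calcrl is the gene whose groups do not overlap, with 4055 to 4382 CPM in Control AAV and 3401 to 3787 CPM in nANGPTL4 AAV.

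Calcrl, the shared receptor subunit, lies on the minus strand of chromosome 2 at 84330626 to 84425411 (mm10), in 16 merged exons. It had 4055, 4382, 4205 and 4321 CPM in Control AAV libraries 1 to 4. In nANGPTL4 AAV libraries 1 to 4 it had 3467, 3401, 3787 and 3478 CPM. The highest nANGPTL4 AAV library was thus below the lowest Control AAV library. That held for 6.99% of all tested genes and 12.6% of the 9256 above a mean log2 CPM of 3, where Calcrl lies. The means were 4241 ± 144 and 3533 ± 173 CPM (SD, n = 4 each), and the log2 fold change was -0.26 (SE 0.05), at an adjusted p of 0.0654 with edgeR and 0.000240 with DESeq2. Over 18 alternative fits the log2 fold change was between -0.29 and -0.22 and the adjusted p between 0.000240 and 0.208. In a bulk sort, fewer cells of a type and less RNA per cell cannot be told apart.

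Ramp2, the main partner of CALCRL in endothelium, lies on the plus strand of chromosome 11, from 101246028 to 101259546. Its 4 Control AAV libraries had 2081, 2260, 2227 and 2067 CPM, and its 4 nANGPTL4 AAV libraries 2202, 2112, 2216 and 2233 CPM. All 4 nANGPTL4 AAV values fell inside the Control AAV range. The log2 fold change was 0.02 (SE 0.05, edgeR adjusted p = 0.855). Vps25, which shares bases with Ramp2, was at 1.83 ± 0.238 and 2.02 ± 0.501 CPM (SD, n = 4 each), and 31.7% of the 31-base stretches of Ramp2 recur in other genes. The sources used here do not say how reads in the shared bases were assigned.

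The ratio of Ramp2 to Calcrl puts these same values side by side within each library and is no separate evidence. The log2 ratio of Ramp2 to Calcrl CPM was -0.96, -0.96, -0.92 and -1.06 in the Control AAV libraries, and in the nANGPTL4 AAV libraries it was -0.65, -0.69, -0.77 and -0.64. Every nANGPTL4 AAV library lay above every Control AAV library, with a difference of 0.29 (SE 0.04). An exact two-sided permutation test over 70 arrangements gave p = 0.0286, the smallest it can give. The adjusted p over the 5 ratios tested was 0.143, which did not pass. With that floor a ratio separated by itself could not pass the adjustment, so its not passing decides nothing. A ratio within a library does not move with the scaling, and it shows unequal levels of the pair, not which of them differed. As a ratio of CPM per kb it was 0.753 ± 0.0323 and 0.918 ± 0.0374 over all exonic bases (SD, n = 4 each). With the bases shared with Vps25 taken off the Ramp2 length, and the counts unchanged, it was 1.13 ± 0.0485 and 1.38 ± 0.0562.

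**Figure D2:**
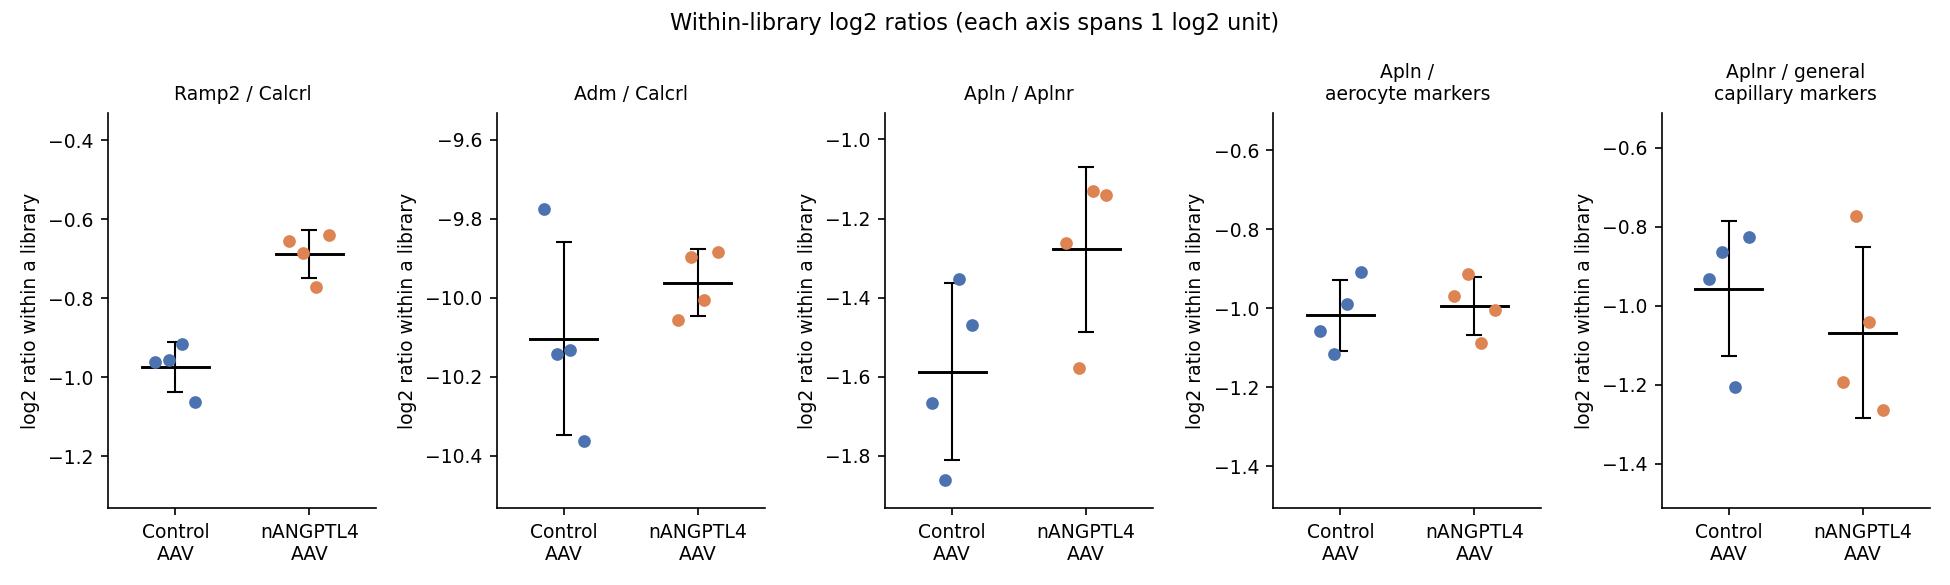
Log2 ratios within each library for 5 pairs, with the mean and SD of 4 libraries per group and axes that each span 1 log2 unit. Ramp2 to Calcrl separates the groups, from -1.06 to -0.92 in Control AAV and from -0.77 to -0.64 in nANGPTL4 AAV, and the other 4 ratios overlap.

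The remaining RAMPs contributed little. Ramp3, the other adrenomedullin-directing RAMP, had 18.5, 20.9, 21.3 and 16.7 CPM in Control AAV libraries and 26.6, 19.0, 17.1 and 22.2 CPM in nANGPTL4 AAV libraries. The groups overlapped. The log2 fold change was 0.13 (SE 0.13, edgeR adjusted p = 0.635), and leaving out the highest library, nANGPTL4 AAV library 1, made it 0.02. Ramp3 lies on chromosome 11 at 6658521 to 6677475, and 7.32% of its exonic bases overlap Gm11978 on the other strand, which had 5 to 20 counts per library. Ramp2 made up 97.9 ± 0.143% of the summed RAMP level per kb in Control AAV and 97.7 ± 0.417% in nANGPTL4 AAV, and Ramp3 2.09 ± 0.143% and 2.26 ± 0.419% (SD, n = 4 each).

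Ramp1, which turns CALCRL into the receptor for calcitonin gene-related peptide, was barely detected. It lies on chromosome 1 at 91179822 to 91225196 and had 7, 24, 28 and 30 counts in the Control AAV libraries, in order of replicate. The nANGPTL4 AAV libraries had 23, 38, 31 and 35. Control AAV library 1 was the lowest. The log2 fold change was 0.43 (SE 0.36, edgeR adjusted p = 0.577) and 0.16 without that library. The mean log2 CPM of 42 markers of other cell types was also lowest in that library, at 1.08 against 1.64 to 2.33 in the other 7. With this mean as a covariate the log2 fold change of Ramp1 was -0.0054.

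Adm, which encodes the precursor of adrenomedullin, was scarce beside its receptor. It lies on chromosome 7 at 110627661 to 110629820 and had 420, 436, 308 and 324 counts in the Control AAV libraries. The nANGPTL4 AAV libraries had 299, 359, 402 and 376. As CPM these were 4.61, 3.86, 3.73 and 3.26, and 3.23, 3.55, 3.66 and 3.66. The groups overlapped. The log2 fold change was -0.13 (SE 0.12, edgeR adjusted p = 0.600), and leaving out the highest library, Control AAV library 1, made it -0.03. The log2 ratio of Adm to Calcrl CPM differed by 0.14 (SE 0.13, exact permutation p = 0.314, adjusted p = 0.524).

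Aplnr, the apelin receptor, lies in 1 merged exon on chromosome 2 at 85136225 to 85139923. It had 872, 899, 688 and 895 CPM in Control AAV libraries 1 to 4 and 656, 874, 691 and 613 CPM in nANGPTL4 AAV libraries 1 to 4. In each group 1 library crossed over: Control AAV library 3 sat among the low values and nANGPTL4 AAV library 2 among the high ones. The log2 fold change was -0.24 (SE 0.11, edgeR adjusted p = 0.301). Leaving out Control AAV library 3 made it -0.32, and leaving out nANGPTL4 AAV library 2 made it -0.35, with edgeR adjusted p of 0.195 and 0.169, in a range of 0.169 to 0.541 over the 18 alternatives.

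Apln, the precursor of apelin, lies on the minus strand of the X chromosome at 48025146 to 48034853. It had 275, 247, 269 and 323 CPM in Control AAV libraries 1 to 4 and 273, 293, 315 and 278 CPM in nANGPTL4 AAV libraries 1 to 4. The nANGPTL4 AAV values lay within the Control AAV range. The log2 fold change was 0.06 (SE 0.08, edgeR adjusted p = 0.747). The log2 ratio of Apln to Aplnr was -1.59 ± 0.224 in Control AAV and -1.28 ± 0.209 in nANGPTL4 AAV (SD, n = 4 each), and the groups overlapped (exact permutation p = 0.114, adjusted p = 0.286).

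The capillary types that Apln and Aplnr mark gave a frame for these values. The 12 other aerocyte markers had log2 fold changes with a median of 0.05, of which 9 were positive and none was called, and Apln relative to their mean differed by 0.02 (SE 0.06, exact permutation p = 0.714, adjusted p = 0.714). Among 10 other general capillary markers the median was -0.12, with 9 negative and none called by edgeR, although 5 had an unadjusted p under 0.05, DESeq2 called 4, and the robust edgeR fit and limma-voom each called 1, Cd93. In 5 of these 10 the groups did not overlap, all lower in nANGPTL4 AAV. Among the 9256 genes above a mean log2 CPM of 3, 62.5% were negative, 22.5% had an unadjusted p under 0.05, and in 12.6% the groups did not overlap, with nANGPTL4 AAV lower. Over every gene tested these shares were 47.8%, 17.6% and 6.99%, and DESeq2 called 5.07%. Counts of negative genes in the lists stand against these shares. Aplnr relative to the mean of the 10 general capillary markers differed by -0.11 (SE 0.14, exact permutation p = 0.429, adjusted p = 0.536). In Control AAV library 3 this log2 ratio was -1.20 against -0.93 to -0.83 in the other 3. The median log2 fold change was -0.03 over those 9256 genes and 0.01 over every gene tested.

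Variation of the 7 genes together from library to library did not pass a test. Of 21 pairs of the 7 genes, none had an adjusted permutation p under 0.560. No r is given for the pairs with Calcrl, whose values fall into the 2 groups of 4 libraries. Aplnr and Apln had a Pearson r of 0.03 (permutation p = 0.944) and a Spearman rho of 0.07 (permutation p = 0.882) over 8 libraries, and r was -0.16 without the 2 libraries farthest from the median of Aplnr. Ramp3 and Apln had r = -0.65 (permutation p = 0.0806, adjusted p = 0.560), rho = -0.67 (permutation p = 0.0831, adjusted p = 0.624), and r = -0.70 without 2 libraries. For Ramp1 and Adm, r was -0.78 (permutation p = 0.0581, adjusted p = 0.560), rho was -0.45 (permutation p = 0.267, adjusted p = 0.624), and r was 0.59 without 2 libraries, so that relation rested on those libraries.

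Of 9007 other genes with a mean log2 CPM of at least 3, those whose pattern over the 8 libraries was most like that of one of the 7 were, for Calcrl, Rubcn and Tram1, with r = 0.87 and 0.86 on deviations from the group means (0.98 for both with the group difference left in). With the group difference left in, they were Zfp950 (r = 0.94) and Zfpm1 (r = 0.91) for Ramp2, Pcsk5 (r = 0.98) and Ap2m1 (r = 0.97) for Aplnr, and Arl6 (r = 0.96) and Tmem97 (r = 0.94) for Apln. These pairs were picked as the highest of all on r with the group difference left in. On that r, 191 genes were over 0.9 with Calcrl, 35 with Aplnr, 8 with Apln and 3 with Ramp2. The count for Calcrl carries its group difference, so it does not compare with the other counts. Pcsk5, a proprotein convertase, was at 147 ± 10.7 and 127 ± 11.8 CPM (SD, n = 4 each).

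A list of other ligands and receptors held the peptide genes Adm2, Calca, Calcb, Iapp and Apela, the receptor genes Calcr, Ackr3 and Gpr182, and Crcp. Of these 9 genes 4 passed the low-count filter and 0 were called by edgeR. An unadjusted p under 0.05 was found in 3, Gpr182, Ackr3 and Crcp, all with negative values. Over all genes tested, 10.3% had such a p with a negative value, and 18.2% of those above a mean log2 CPM of 3. Gpr182, an atypical receptor of endothelium related in sequence to ACKR3, had 357, 411, 361 and 339 CPM in Control AAV libraries and 243, 267, 310 and 281 CPM in nANGPTL4 AAV libraries. Its groups did not overlap, with nANGPTL4 AAV lower. That held for 6.99% of all genes tested and 12.6% of those above a mean log2 CPM of 3. The log2 fold change of Gpr182 was -0.42 (SE 0.08, edgeR adjusted p = 0.0642, and 0.000416 with DESeq2). Ackr3, a scavenging receptor that also takes up adrenomedullin, was at 235 ± 26.1 and 190 ± 10.5 CPM (SD, n = 4 each), and the log2 fold change was -0.30 (SE 0.08, edgeR adjusted p = 0.0988, and 0.0150 with DESeq2). Crcp, which encodes a protein that aids receptor coupling, was at -0.11 on the same scale (SE 0.05, edgeR adjusted p = 0.256). The alternative ligands were close to absent, with 0 to 17 counts per library for Calca, 3 to 15 for Adm2 and 0 to 2 for Apela, the second ligand of APLNR.

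**Figure D3:**
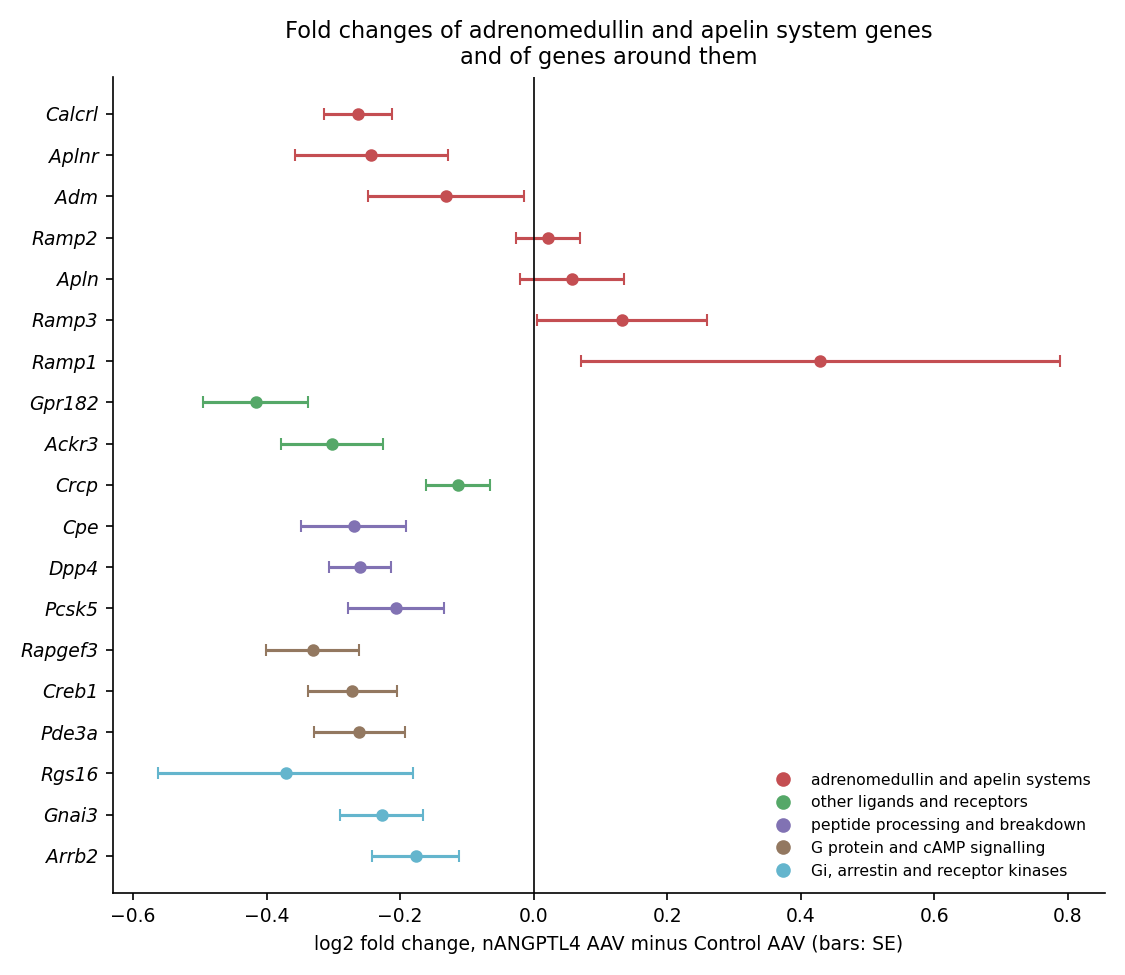
Log2 fold change (nANGPTL4 AAV minus Control AAV) with its SE from the edgeR fit for the 7 genes and, from 4 lists around them, the 3 genes with the smallest p per list. Calcrl at -0.26 and Aplnr at -0.24 lie left of 0, Ramp2 at 0.02 and Apln at 0.06 lie near it, and Ramp1 has the widest error. The genes outside the 7 were picked by p, so their size is not typical of their lists.

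Enzymes that make, amidate or break down the peptides had negative values in 8 of 9 measured genes. The share was 47.8% over all genes tested and 62.5% above a mean log2 CPM of 3. The median of the 9 enzyme genes was -0.12 on the log2 scale, with 0 called by edgeR, 5 having an unadjusted p under 0.05. Such a p was found in 17.6% of all genes tested and 22.5% of those above a mean log2 CPM of 3. Dpp4, a peptidase of the cell surface, was at 352 ± 13.2 and 294 ± 11.3 CPM (SD, n = 4 each), and its groups did not overlap. Groups were apart with nANGPTL4 AAV lower in 6.99% of all genes tested and 12.6% of those above a mean log2 CPM of 3. The log2 fold change of Dpp4 was -0.26 (SE 0.05, edgeR adjusted p = 0.0640). The robust edgeR fit called 1 of the 9, Dpp4, and DESeq2 called 2, Dpp4 and the carboxypeptidase Cpe at -0.27. Over all genes tested they called 0.313% and 5.07%. Pam, the enzyme that amidates adrenomedullin, was named outside the rule, after its values were seen, and was at -0.12 (SE 0.04, edgeR adjusted p = 0.208).

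Downstream of CALCRL, the 24 genes of Gs and cyclic AMP signalling had log2 fold changes around a median of -0.09, 17 negative and 7 positive. Negative values were found in 47.8% of all genes tested and 62.5% of those above a mean log2 CPM of 3. None of the 24 was called by edgeR, 9 had an unadjusted p under 0.05, 7 of them negative, and DESeq2 called 4 lower and 1 higher. That unadjusted p was found in 17.6% of all genes tested and 22.5% of those above a mean log2 CPM of 3. With a negative value the shares were 10.3% and 18.2%, and DESeq2 called 5.07% of all genes tested. Rapgef3, which encodes the cyclic AMP sensor EPAC1, was at 401 ± 28.9 and 319 ± 26.6 CPM (SD, n = 4 each), and the log2 fold change was -0.33 (SE 0.07, edgeR adjusted p = 0.0691). Creb1, the cyclic AMP-responsive transcription factor, was at -0.27 (SE 0.07, edgeR adjusted p = 0.0902) and the phosphodiesterase Pde3a at -0.26 (SE 0.07, edgeR adjusted p = 0.103). These 3 were named for their small p, and in all 3 the groups did not overlap. Of the 24 genes, 6 were lower without overlap and 1 higher, against 6.99% and 3.89% of all genes tested. Among genes above a mean log2 CPM of 3 the lower share was 12.6%. Rapgef4, the second EPAC gene, was chosen after its values were seen because it went the other way, at 33.2 ± 2.11 and 38.2 ± 2.27 CPM (log2 fold change 0.20, SE 0.06), also without overlap.

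A list of 17 genes held Gi subunits, other G protein alpha subunits (Gnaq, Gna11, Gna12 and Gna13), arrestins, receptor kinases and Rgs genes. It is wider than the Gi coupling of APLNR. Its median was 0.0003, the value of Gnaq, with 9 positive and 8 negative and 0 called by edgeR. At an unadjusted p under 0.05 there were 2, Gnai3 at -0.23 and Arrb2 at -0.18, and DESeq2 called Gnai3. Over all genes tested, 17.6% had such a p and DESeq2 called 5.07%. Rgs16, a regulator of Gi signalling, was at -0.37 (SE 0.19, edgeR adjusted p = 0.342). The 11 endothelial genes linked to apelin signalling had a median of 0.01, with 6 positive, 5 negative and 0 called by edgeR or DESeq2, 3 having an unadjusted p under 0.05. These 3 were the nitric oxide synthase gene Nos3 at -0.16, the fatty acid binding protein gene Fabp4 at -0.42 and Mef2d at -0.13. Of the 10 other receptors known to bind RAMPs 5 were measured, with a median of 0.29 and 0 called by edgeR or DESeq2, and their sum was only 3.56 to 5.43 CPM per library. Gper1 was the 1 with an unadjusted p under 0.05, at -0.60 (SE 0.22, edgeR adjusted p = 0.193).

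Adm and Apln are both known as genes that hypoxia induces through HIF factors. A hypoxia list held response genes and also the HIF subunit genes Hif1a, Epas1 and Arnt. Of its 17 measured genes 14 had negative values, against 62.5% of all genes above a mean log2 CPM of 3. An unadjusted p under 0.05 was found in 5, all negative. The share with such a p and a negative value was 10.3% of all genes tested and 18.2% above that level. The median of the 17 was -0.07, and edgeR, which called 0.138% of all genes tested, called 1 of the 17. This was Hif1a, the oxygen-regulated factor itself, which fell from 80.8 ± 2.42 to 65.5 ± 2.43 CPM (SD, n = 4 each). Its log2 fold change was -0.30 (SE 0.04, edgeR adjusted p = 0.0369). It no longer passed when any 1 library was left out, with adjusted p from 0.0620 to 0.162, or in 4 of the other 10 alternatives. Vegfa, a HIF target, was at -0.18 (SE 0.07, edgeR adjusted p = 0.224), Ldha at -0.20 and Slc2a1 at -0.34, and Epas1, the gene of the endothelial HIF factor HIF-2 alpha, named after its values were seen, at -0.03.

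The RefSeq promoter table (GRCm38.p6, the mm10 assembly) matched 5 of the 7 genes by symbol. Sequence upstream of the annotated starts is shown for Calcrl and for the peptide genes that HIF is known to induce, to let the HIF core (ACGTG or GCGTG, either strand) and an ETS core (CCGGAA or AGGAAG, either strand) be seen. Capitals mark every match to one of these cores.
Calcrl, chr2:84425412-84425516, minus strand: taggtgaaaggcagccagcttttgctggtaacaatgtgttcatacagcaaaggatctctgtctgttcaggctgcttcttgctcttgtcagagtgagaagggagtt
Adm, chr7:110627407-110627656, plus strand: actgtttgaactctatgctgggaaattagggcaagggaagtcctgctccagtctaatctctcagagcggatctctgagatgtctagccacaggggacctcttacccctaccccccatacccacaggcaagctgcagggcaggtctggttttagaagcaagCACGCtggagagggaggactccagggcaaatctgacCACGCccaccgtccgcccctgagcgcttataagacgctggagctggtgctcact
Apln, chrX:48034854-48035103, minus strand: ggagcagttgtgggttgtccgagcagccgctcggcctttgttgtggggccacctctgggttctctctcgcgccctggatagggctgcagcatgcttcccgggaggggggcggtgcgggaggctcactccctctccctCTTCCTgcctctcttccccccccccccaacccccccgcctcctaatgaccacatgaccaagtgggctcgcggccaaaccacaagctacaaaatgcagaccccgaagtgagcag
The Adm window held 2 HIF cores and no ETS core, and the Apln window held 1 ETS core and no HIF core. Of 32851 promoters, 38.6% hold a HIF core and 38.2% an ETS core in a window of 250 bases. The Calcrl window, which is 105 bases long because GENCODE places the start further upstream than RefSeq, held neither, against 16.8% and 15.6% of windows of that length. Of the other 2 genes with an entry, Ramp3 held 2 HIF and 2 ETS cores in 238 bases, where 37.1% and 36.2% of windows hold one, and Ramp1 held neither in 250 bases. These letters describe the windows and say nothing about binding.

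The values of vessel-type and other-cell markers stand beside those of the 7 genes, and their part in the result was not tested. Of all genes tested, 47.8% were negative and 17.6% had an unadjusted p under 0.05. Above a mean log2 CPM of 3, these shares were 62.5% and 22.5%. Of all genes tested, edgeR called 0.138% and DESeq2 5.07%. Of 10 venous markers 10 were negative on the log2 scale, with a median of -0.25 and 0 called by edgeR, 6 having an unadjusted p under 0.05 and DESeq2 calling 3. Of 13 arterial markers 11 were negative, with a median of -0.23, 7 lower and 1 higher at an unadjusted p under 0.05, and DESeq2 calling 3 lower and 1 higher. edgeR called 1, Gja5, which fell by 0.60 on the log2 scale (edgeR adjusted p = 0.0317). That call was lost in 8 of 18 alternatives, with the other-cell covariate (adjusted p = 0.156) and in each fit without 1 library except Control AAV library 2 (edgeR adjusted p from 0.0146 to 0.115 over the 8 such fits). Of 7 lymphatic markers 6 were negative, with a median of -0.18 and 0 called by edgeR, 1 having an unadjusted p under 0.05 and DESeq2 calling 1. Of the 12 pan-endothelial markers 11 were negative, with a median of -0.05 and 0 called by edgeR, 2 having an unadjusted p under 0.05 and DESeq2 calling 1. The other-cell lists had medians of -0.07 (mural), 0.21 (fibroblast), 0.27 (epithelial), 0.44 (leukocyte) and 0.74 (erythroid and platelet). Positive values were found in 3 of 8 mural, 4 of 6 fibroblast, 11 of 12 epithelial, 6 of 7 measured leukocyte and 9 of 9 erythroid and platelet markers. Those with an unadjusted p under 0.05 were 0 mural, 1 fibroblast (lower), 3 epithelial higher and 1 lower, 2 leukocyte (higher) and 5 erythroid and platelet (higher). DESeq2 called 1 erythroid and platelet marker higher and 0 of the mural, fibroblast and leukocyte markers. Among the epithelial markers edgeR called 1 higher, Scgb3a2, and DESeq2 called 2 higher and 1 lower. The edgeR call of Scgb3a2 was lost in 12 of 18 alternatives, among them every fit without 1 library (adjusted p from 0.0620 to 0.162). With the mean of these other-cell markers as a covariate, Calcrl had a log2 fold change of -0.26 and Aplnr one of -0.26.

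**Figure D4:**
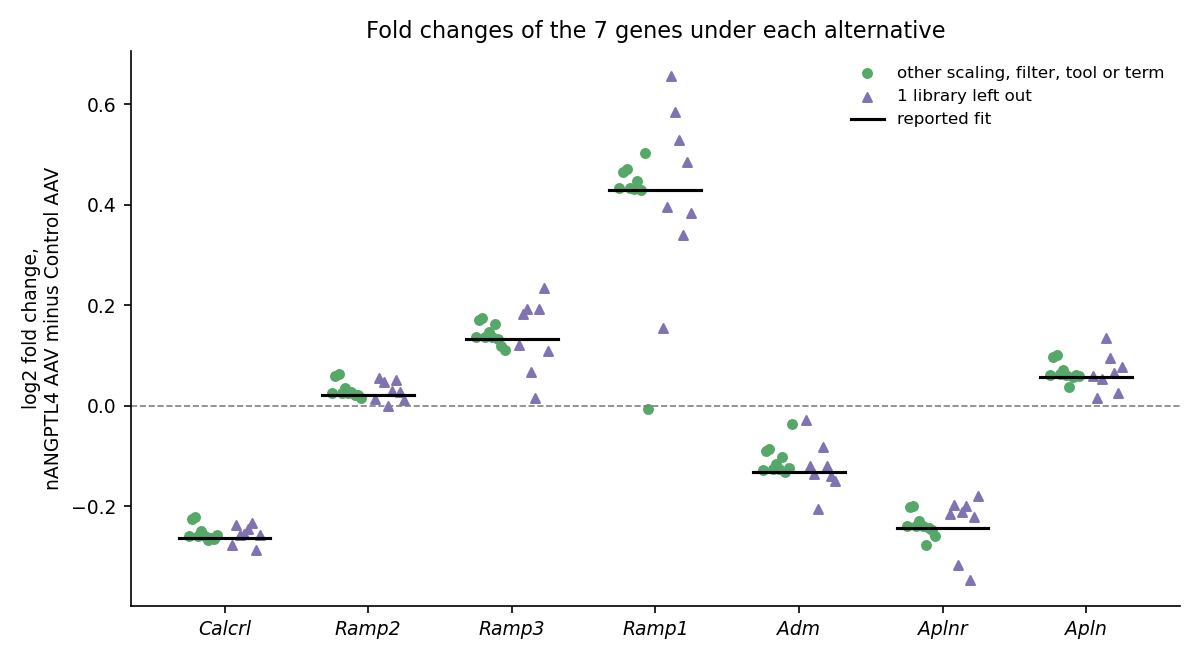
Log2 fold change of each of the 7 genes in the reported edgeR fit (line), in 10 fits with another scaling, filter, tool or term (circles; 9 for Ramp1, which fails the stricter filter) and in 8 fits that leave out 1 library (triangles). Calcrl stays between -0.29 and -0.22 and Aplnr between -0.35 and -0.18, while Ramp1 spans -0.01 to 0.66.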

How the data were processed

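RNA-seq libraries of sorted lung endothelial cells came from 4 Control AAV and 4 nANGPTL4 AAV samples, made with a low-input cDNA kit per the labels' protocols. The authors deposited raw gene-level read counts, with no scaling, in 1 table of 31610 Ensembl identifiers, 31491 of them matched to a symbol. The submitters' processing notes name the mm10 build. Sources used here do not give the aligner, counter, strand setting or annotation. The number of per-sample columns left unmapped was 0. Gene positions, exon lengths, overlaps and 31-base stretches came from GENCODE M21 (the same build), and promoters from RefSeq.

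Counts were tested with edgeR 4.0.16 in R 4.3.3: filterByExpr (minimum count 10), TMM scaling, quasi-likelihood F test with the group as the only term, and Benjamini-Hochberg adjustment over 18874 genes, called under 0.05. A positive log2 fold change means a higher level in nANGPTL4 AAV, and the SE comes from the same fit. Log2 CPM used a prior count of 2. CPM per kb divides by the merged exon length. Ratios used exact two-sided permutation tests (scipy 1.17.1). DESeq2 1.42.0 and limma 3.58.1 (voom) were alternatives, with other scalings and filters, a replicate block, a score of other cells, and each library left out. The edgeR fit was tested on simulated data.

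The 7 genes and the lists were chosen with earlier results of these data known. Of the pathway lists, called genes and up to 3 others with the smallest p were named, and for 4 of the genes the 2 most like them in pattern. Marker lists are given by counts. Lists were described, not tested. At 83183122 counts or more per library, counting error matters mainly for Ramp1 and Adm.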

Additional observations from a re-analysis of the deposited data

Results flagged for a closer look

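In 136 groups of 4 libraries checked for a library far from the other 3, 7 had one, where chance gives about 6.8. Aplnr had 688 CPM in Control AAV library 3, far below the other 3. The other 6 were in genes around it: Arrb2 at 32.4 CPM in nANGPTL4 AAV library 1 (highest), Car4 at 1275 CPM in nANGPTL4 AAV library 3 (highest), Tmem100 at 2188 CPM in Control AAV library 3 (highest), Mmrn1 at 20.2 CPM in Control AAV library 2 (highest), and Tek at 1633 CPM and Egfl7 at 2185 CPM in nANGPTL4 AAV library 3 (both lowest). Control AAV library 3 was lowest for Aplnr and highest for Tmem100, both markers of general capillary cells.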

How the results depend on the processing

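Over 125 alternative values for the 7 genes, 123 kept their direction and their side of the threshold. The exceptions were Calcrl with DESeq2 (log2 fold change -0.26, called, which makes 1 of 7 genes called) and Ramp1 with the other-cell covariate (-0.0054). Leaving out 1 library gave -0.29 to -0.23 for Calcrl. The pathway lists held 1 called gene in the reported fit, 0 with upper quartile scaling, library size only, the replicate block, the other-cell covariate or any 1 library left out, 2 with the robust fit and 11 with DESeq2. Over all genes 26 were called, 4 with upper quartile scaling, 4 with library size only, 17 with the stricter filter (at least 50 counts in 4 libraries), 59 with the robust fit, 956 with DESeq2, 6 with the replicate block, 1 with the covariate and 1 to 2 without 1 library. The cause of these shifts was not tested.

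The log2 ratio of Apln to aerocyte markers was -0.00825 when Control AAV library 2 was left out and -0.00264 when nANGPTL4 AAV library 2 was, in a range of -0.00825 to 0.0604 over libraries left out, and the other 4 ratios kept their sign. Among other named genes, the log2 fold change changed sign for Col1a1 with the covariate (-0.39) and without nANGPTL4 AAV library 2 (-0.0546, in a range up to 0.590 over libraries left out), Zfpm1 without Control AAV library 4 (-0.0412, range up to 0.148), Ap2m1 with upper quartile scaling (0.0172) and library size only (0.0208), and Arl6 without Control AAV library 2 (-0.00204) and nANGPTL4 AAV library 3 (-0.00913, range up to 0.0696). Whether the replicate numbers pair the samples was not settled. Same-numbered libraries had correlations of 0.16, 0.14, -0.25 and -0.38 between their deviations, and differently numbered ones were not compared. With the replicate block Calcrl had a log2 fold change of -0.26 (adjusted p = 0.171), and the Ramp2 to Calcrl ratio differed by 0.29, with an exact sign-flip permutation p of 0.125, the smallest it can give.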
